A study of Mus musculus with 2 samples.

Results

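The 9 genes described here are the tumour suppressor gene Trp53 and 8 genes known as its targets, Cdkn1a, Mdm2, Trp53inp1, Ccng1, Perp, Phlda3, Ei24 and Fas. They were taken as every probe whose gene name on the array equals one of these symbols, which gave 14 probes of 41174 and 9 genes of 27573. RNA came from thymus of 6-month-old Pla2g10-Tg/+ mice, which overexpress the group X secreted phospholipase A2 gene per the labels, and of littermate controls, both on a C57BL/6 background. RNA of 4 mice was pooled per genotype and both pools were hybridised together on 2 two-colour arrays with exchanged dyes. On array 1 the transgenic pool carried Cy5 and the control pool Cy3, and on array 2 the dyes were the other way round. Which promoter drives the transgene is not stated in the labels, and the single Pla2g10 probe was well above background in 0 of 4 channels, with a log2 ratio of -0.04.

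The p53 protein is a transcription factor that is held at a low level by the ubiquitin ligase Mdm2 and accumulates after DNA breaks and other stress. It then raises the transcription of genes that stop the cell cycle, of genes that promote cell death and of Mdm2 itself, which closes a negative feedback loop. Thymocytes are known for a strong p53-dependent death response to DNA damage, and they cut their own DNA when they rearrange receptor genes.

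p53 binds pairs of a 10-base half-site in DNA. RefSeq promoter windows of build GRCm38.p6, from 250 bases before to 50 bases after a transcription start, were matched by symbol for 7 of the 9 genes, with 8 windows because Cdkn1a has 2 starts. A p53 half-site without mismatch, a motif that reads the same on both strands, lay in 5 of the 8 windows, and in 8.36% of all 32851 windows. A pair of half-sites at most 13 bases apart with at most 2 mismatches in the 20 bases, the half-sites' central 4 bases being intact, lay in 1 of the 8 windows and in 2.12% of all windows. The matching stretches are shown with the matched bases in capitals. Only the Cdkn1a stretch holds a pair, and a single half-site does not mark a gene as a p53 target. Bases outside the windows were not searched, so a window without a match does not show that a gene lacks a site. A match is a description of the letters, and the arrays hold no measurement of binding.
Cdkn1a, chr17:29090898-29090977, plus strand: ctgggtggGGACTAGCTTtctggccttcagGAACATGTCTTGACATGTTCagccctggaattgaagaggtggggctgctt
Mdm2, chr10:117710905-117710974, minus strand: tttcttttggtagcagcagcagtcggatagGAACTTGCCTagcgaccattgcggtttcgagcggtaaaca
Ccng1, chr11:40755432-40755501, minus strand: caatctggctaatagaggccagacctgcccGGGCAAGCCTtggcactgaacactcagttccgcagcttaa
Ei24, chr9:36797335-36797374, minus strand: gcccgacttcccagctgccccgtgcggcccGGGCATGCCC
Trp53, chr11:69580254-69580323, plus strand: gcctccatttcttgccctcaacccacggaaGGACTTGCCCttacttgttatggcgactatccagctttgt
The Cdkn1a stretch holds 3 marked half-sites before the upstream start, which form 2 pairs by this rule. The first 2 form a pair with 12 bases between them and 0 mismatches. The last 2 adjoin, with 0 bases between them and 1 mismatch, from 51 to 32 bases before that start. The other 4 stretches hold a single half-site, and no match was found in the windows of Phlda3, Fas and the downstream start of Cdkn1a.

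Across the 8 measured genes of the 9 the transgenic and the control thymus differed little. Perp, which encodes a membrane protein of cell death and of desmosomes, had the largest ratio, 0.31 ± 0.16 on the log2 scale, or 1.24-fold. With the scanner software's log ratios it was at 0.46. Fas, Ei24, Phlda3 and Ccng1 were between 0.05 and 0.14 above the control pool, and Trp53, Trp53inp1 and Mdm2 between 0.05 and 0.10 below it. Cdkn1a was not measurable. Ratios are transgenic over control, averaged over the arrays and followed by ± their SD (n = 2 arrays, 1 pool per genotype). That SD is technical if both arrays carry the same pools, as taken here, so no difference has a check across animals and no test across animals was made. Levels are log2 intensities after normalization, including an offset of 50 added to each channel. They are compared only within a probe or, for marker lists, as linear sums over the same probes.

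Of 41534 transcript spots, those well above background made up 34.1% for the transgenic pool and 29.0% for the control pool on array 1, and 28.5% for the transgenic pool and 33.2% for the control pool on array 2. A probe counted as measured if it was well above background for 1 genotype on both arrays, which 12234 probes of 9396 genes were. The brightest measured probe stood for its gene. Of the 14 probes 12 were measured, covering 8 of the 9 genes, and the mean log2 ratio of the 9396 genes lay within 0.27 of 0 for 95 in 100 of them.

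**Figure D1:**
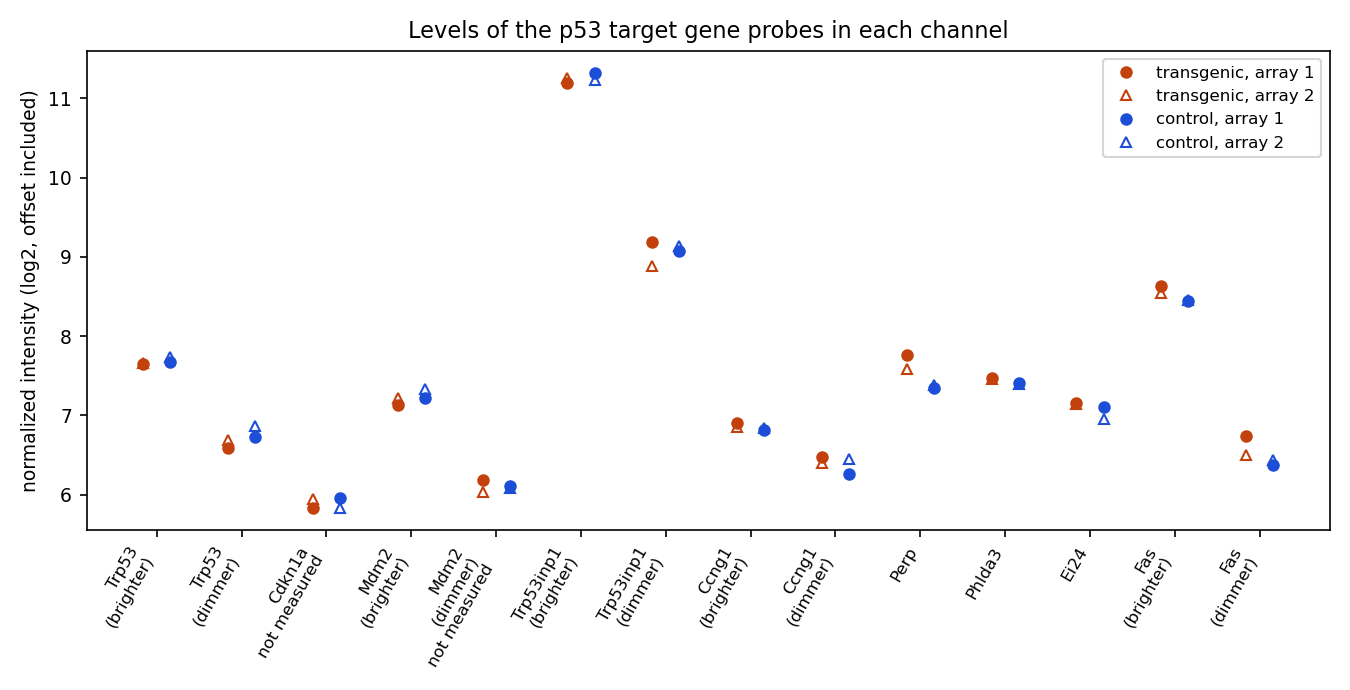
Normalized log2 intensity (vertical axis, offset included) of the 14 probes of the 9 genes, with transgenic channels left of control channels, circles for array 1 and triangles for array 2. The Perp channels of the transgenic pool, at 7.76 and 7.58, lie above those of the control pool, at 7.34 and 7.38, while most other probes differ by less.

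Trp53 itself was slightly lower in the transgenic pool on both of its probes. The brighter probe (A_52_P781398, mm8 chromosome 11, 69396652 to 69396710) read 7.65 and 7.66 in the transgenic channels of arrays 1 and 2, against 7.68 and 7.74 in the control channels, a ratio of -0.06 ± 0.04. The dimmer probe (A_52_P491849, 69405827 to 69405886), with 9116 bases between the probes, read 6.59 and 6.68 in the transgenic channels, against 6.73 and 6.86 in the control channels, a ratio of -0.16 ± 0.03. On neither probe did the channels of the genotypes overlap. The share of all measured genes without such overlap was not computed, so here and below a lack of overlap only describes the probe's values. With an offset of 0 the dimmer probe was at -0.31 ± 0.03. Of the 9396 measured genes, 62.5% had a ratio at least as far from 0 as the brighter Trp53 probe.

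Mdm2, the ligase that marks p53 for degradation and is also its target, was at -0.10 ± 0.02. Its brighter probe (A_52_P469842, mm8 chromosome 10, 117092215 to 117092274) read 7.13 and 7.21 in the transgenic channels, against 7.22 and 7.33 in the control channels. The transgenic channels thus lay below the control channels, with the highest transgenic minus the lowest control channel at -0.0062. With the scanner software's own log ratios Mdm2 was at -0.17. The dimmer probe (A_51_P201346, 117095662 to 117095721) cleared the background criterion in 1 of 4 channels and read 0.08 on array 1 and -0.05 on array 2.

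Trp53inp1 encodes a nuclear protein that is induced by p53, promotes the activating phosphorylation of p53 and takes part in autophagy. It was bright on both probes, and neither gave the same sign on both arrays. The brighter probe (A_51_P175580, mm8 chromosome 4, 11101174 to 11101233) read 11.19 and 11.26 in the transgenic channels, against 11.33 and 11.23 in the control channels, a ratio of -0.05 ± 0.12. The dimmer probe (A_52_P503387, 11098180 to 11098239) read 9.19 and 8.88 in the transgenic channels, against 9.07 and 9.13 in the control channels, a ratio of -0.06 ± 0.26. On each probe the spread between arrays was larger than the mean ratio.

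Among the genes that act on the cell cycle, Cdkn1a encodes p21, the inhibitor of cyclin-dependent kinases through which p53 arrests cells. Its single probe (A_51_P363947, mm8 chromosome 17, 28828096 to 28828155) passed the background criterion in 0 of 4 channels. The spot exceeded its local background by 6.59 and 13.4 units in the transgenic channels and by 16.4 and 5.71 units in the control channels, and the larger value was in the green channel on both arrays. The ratio was -0.13 on array 1 and 0.12 on array 2, so the sign turned with the dye, and no fold is given. A Cdkn1a difference was not detectable with this probe.

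Ccng1 encodes cyclin G1, which recruits a phosphatase to Mdm2. Its brighter probe (A_52_P612803, mm8 chromosome 11, 40592348 to 40592407) read 6.90 and 6.85 in the transgenic channels, against 6.81 and 6.85 in the control channels, a ratio of 0.05 ± 0.06. The dimmer probe (A_51_P161612, 40594334 to 40594393) read 6.47 and 6.39 in the transgenic channels, against 6.26 and 6.45 in the control channels, a ratio of 0.08 ± 0.19. The SD between arrays exceeded the ratio on both probes. On the brighter probe the lowest transgenic channel was 0.0048 above the highest control channel, and on the dimmer probe the channels overlapped.

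The remaining 4 members are Perp, Fas, Ei24 and Phlda3. Perp (A_51_P317941, mm8 chromosome 10, 18546307 to 18546366) read 7.76 and 7.58 in the transgenic channels, against 7.34 and 7.38 in the control channels, with log2 ratios of 0.42 on array 1 and 0.19 on array 2. The lowest transgenic channel was 0.19 above the highest control channel. Of the 9396 measured genes, 3.26% had a ratio at least as far from 0. With an offset of 0 Perp was at 0.43 ± 0.17, and at 0.46 ± 0.14 with the scanner software's log ratios.

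Fas encodes a death receptor of lymphocytes. Its brighter probe (A_51_P345393, mm8 chromosome 19, 34393409 to 34393468) read 8.63 and 8.55 in the transgenic channels, against 8.44 and 8.46 in the control channels, a ratio of 0.14 ± 0.08. The other probe (A_52_P73385, 34375240 to 34375299), designed on a RIKEN cDNA clone, lies 18109 bases from it and read 6.74 and 6.50 in the transgenic channels, against 6.37 and 6.43 in the control channels, a ratio of 0.22 ± 0.22. Channels of the genotypes did not overlap on either probe, but on the second the excess came mainly from array 1, at 0.37 against 0.07 on array 2. With an offset of 0 the second probe was at 0.48 ± 0.44.

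Ei24 encodes a membrane protein of the endoplasmic reticulum that takes part in autophagy and was found as a p53-induced gene. Its probe (A_51_P472751, mm8 chromosome 9, 36529007 to 36529067) read 7.16 and 7.14 in the transgenic channels, against 7.10 and 6.95 in the control channels, a ratio of 0.13 ± 0.10, and 0.21 with the scanner software's log ratios. Phlda3 encodes a protein that competes with the kinase Akt for membrane lipids. Its probe (A_51_P329928, mm8 chromosome 1, 137585476 to 137585535) read 7.47 and 7.46 in the transgenic channels, against 7.40 and 7.39 in the control channels, a ratio of 0.07 ± 0.00. For both genes the transgenic channels lay above the control channels, by less than 0.1 for the nearest pair.

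**Figure D2:**
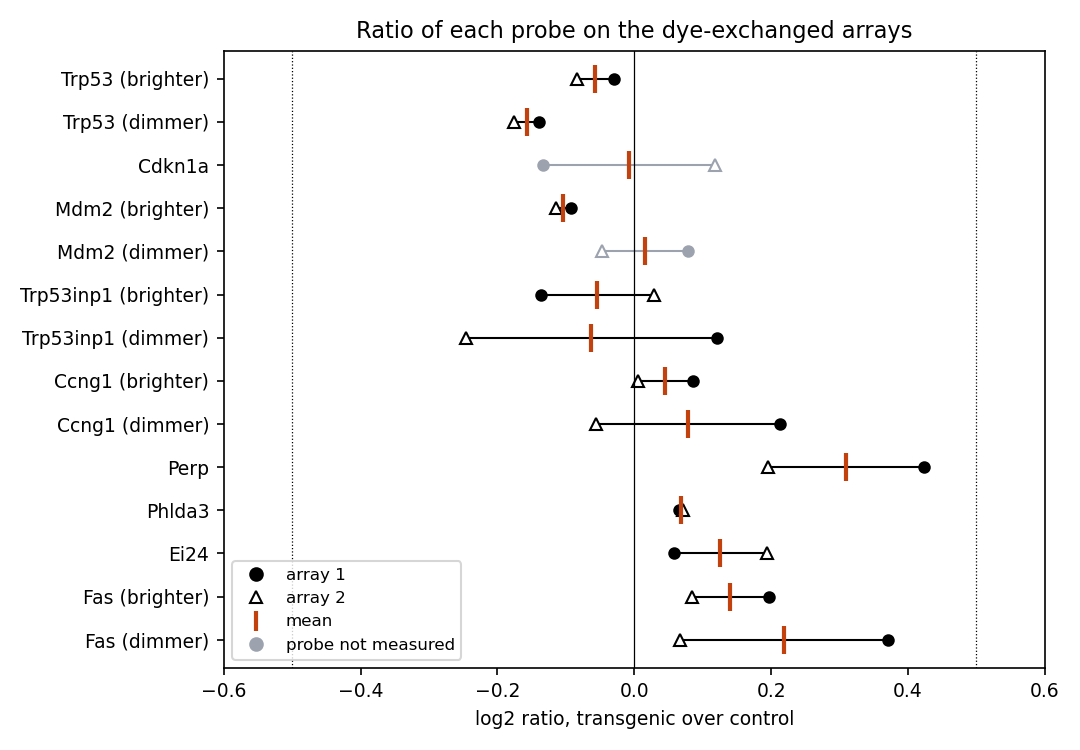
Log2 ratio of transgenic over control (horizontal axis) for each of the 14 probes, with circles for array 1, triangles for array 2 and bars for their mean, and dotted lines at -0.5 and 0.5. All points lie between the dotted lines, and the 2 probes that were not measured are grey.

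None of the 8 measured members was called at least 2-fold different, a call that asked for a mean log2 ratio of at least 1 in size and at least 0.5 with the same sign on each array. Of all 9396 genes 0.0319% were called higher and 0% lower by that rule. Nor did any member reach 0.5 on each array, which 0.287% of genes did upward and 0.0532% downward. By sign alone, 5 members were above 0 on both arrays (Ccng1, Perp, Phlda3, Ei24 and Fas), against 28.3% of all measured genes, and 2 were below 0 on both (Trp53 and Mdm2), against 29.1%. With 8 genes these counts carry little weight, and with median centring in place of loess none of these 8 genes kept 1 sign, all being above 0 on array 1 and below 0 on array 2. Under that setting 2.08% of all measured genes were above 0 on both arrays and 4.46% below, so the loss was general. The median over the 8 measured members was 0.06, with 0.06 on array 1 and 0.05 on array 2, and over all measured genes it was -0.0023.

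The scanner software gave each log ratio a p-value from its error model for that array, and these values are cited here from the authors' deposited scanner files. On array 1, 2 of the 14 probes had such a p under 0.01, both among the 12 measured, against 7.48% of all measured probes. They were Perp, with a software value of 0.00844, and the probe of Fas designed on the cDNA clone, with 0.000214. On array 2, 0 of the 14 did, against 3.64% of measured probes, with software values of 0.0862 for Perp and 0.591 for that Fas probe. Both arrays with the same sign passed for 1.28% of measured probes and for 0 of the 14. With the arrays taken as separate measurements, limma's moderated test across all genes, which covers only the spread between arrays, called 1.71% of genes at an adjusted p under 0.05. It called 0 of the 8 members. Perp alone had an unadjusted p under 0.05 in limma, as 12.4% of all genes had, and its adjusted p in limma was 0.130.

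**Figure D3:**
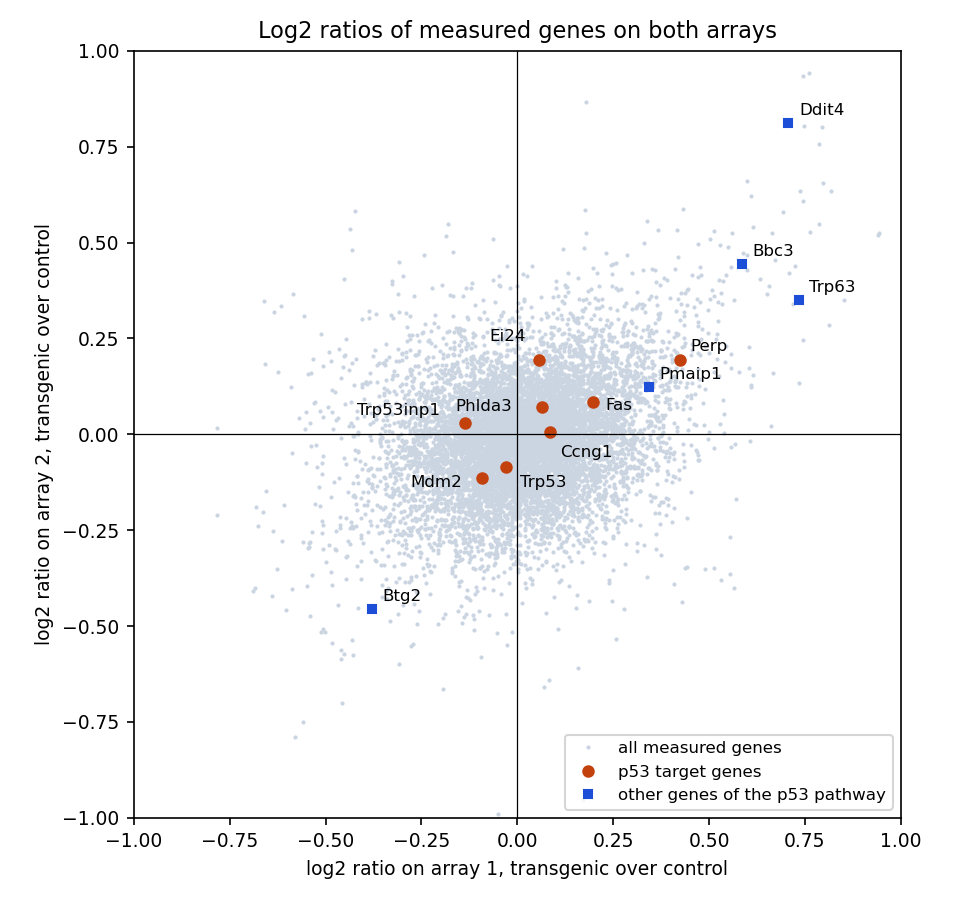
Log2 ratio of transgenic over control on array 1 (horizontal axis) against array 2 (vertical axis) for the 9396 measured genes in grey, the 8 measured p53 target genes as circles and 5 other genes of the pathway as squares. The circles stay within the main cloud, with Perp at 0.42 and 0.19 at its upper right, and 5 genes lie outside the axes.

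Other genes of the pathway were taken from lists by role. The lists were not split by the direction in which p53 acts on a gene or a regulator acts on p53. Their sign counts and medians thus do not measure p53 activity. Of 45 further genes listed as p53 targets, 44 of them on the array, 27 were measured, 9 above 0 on both arrays and 6 below, with a median of -0.0080. Of 15 targets of cell death 11 were measured, 4 of them above 0 on both arrays and 1 below. Of those 4, Pmaip1 and Casp1 passed the filter only through the transgenic pool, which favours a positive sign. Ddit4, an inhibitor of mTOR signalling that glucocorticoids also induce, was at 0.76 ± 0.07 and was the only listed pathway gene at 0.5 or more on each array. With median centring Ddit4 read 1.59 on array 1 and -0.17 on array 2. Bbc3, which encodes the pro-apoptotic protein PUMA, read 0.58 on array 1 and 0.44 on array 2, a mean of 0.51 ± 0.10. Pmaip1, which encodes the pro-apoptotic protein NOXA, was at 0.23 ± 0.16, and at 0.67 with the scanner software's log ratios. Casp1, an inflammatory caspase gene, was at 0.15 ± 0.02, and at 0.46 with those log ratios. Bax, a pore-forming death gene named here after its value was seen, was at -0.08 ± 0.21, with opposite signs on the arrays.

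Of 15 further targets that act on arrest and growth control, 10 were measured, 3 above 0 on both arrays and 3 below, with a median of -0.00085. Btg2, an anti-proliferative gene, had the lowest ratio, -0.42 ± 0.05, and its other 2 probes were also negative, the nearest to 0 at -0.20. The sestrin genes Sesn2 and Sesn1, whose products restrain mTOR signalling, were at 0.18 ± 0.12 and 0.11 ± 0.06, the other Sesn2 probe reading 0.01, and Sfn was at -0.13 ± 0.02. Btg2 and Bbc3, both p53 targets, thus lay on opposite sides of 0 on both arrays with loess. With median centring both were above 0 on array 1 and below 0 on array 2.

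Of 15 targets of DNA repair and metabolism, 14 of them on the array, 6 were measured, 2 above 0 on both arrays and 2 below, with a median of -0.05. The autophagy gene Dram2 was at 0.15 ± 0.21 (0.28 with the scanner software's log ratios), the replication clamp gene Pcna at -0.13 ± 0.15, the kinase subunit gene Prkab1 at -0.10 ± 0.23 and the ubiquitin ligase gene Fbxw7 at -0.09 ± 0.09. None of these 4 exceeded its SD between arrays by much, and for 3 of them the SD was the larger.

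Among 25 regulators of p53, 24 of them on the array, 19 were measured, 6 above 0 on both arrays and 11 below, with a median of -0.08. Of those 11, Mdm4, Prkdc, Ep300 and Trp73 passed the filter only through the control pool, which favours a negative sign. Trp63, a p53 family member that maintains stratified and thymic epithelium, had the highest ratio, 0.54 ± 0.27, and 0.93 with the scanner software's log ratios. With median centring Trp63 read 1.11 on array 1 and -0.10 on array 2. Rpl11 and Rpl5, ribosomal proteins that bind Mdm2 when free, were at 0.28 ± 0.19 and 0.19 ± 0.10, but the other Rpl11 probe read 0.06. Bcl6, a transcriptional repressor of Trp53, was at -0.21 ± 0.10. Mdm4, the partner of Mdm2, was named after its value was seen and was at -0.05 ± 0.06.

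**Figure D4:**
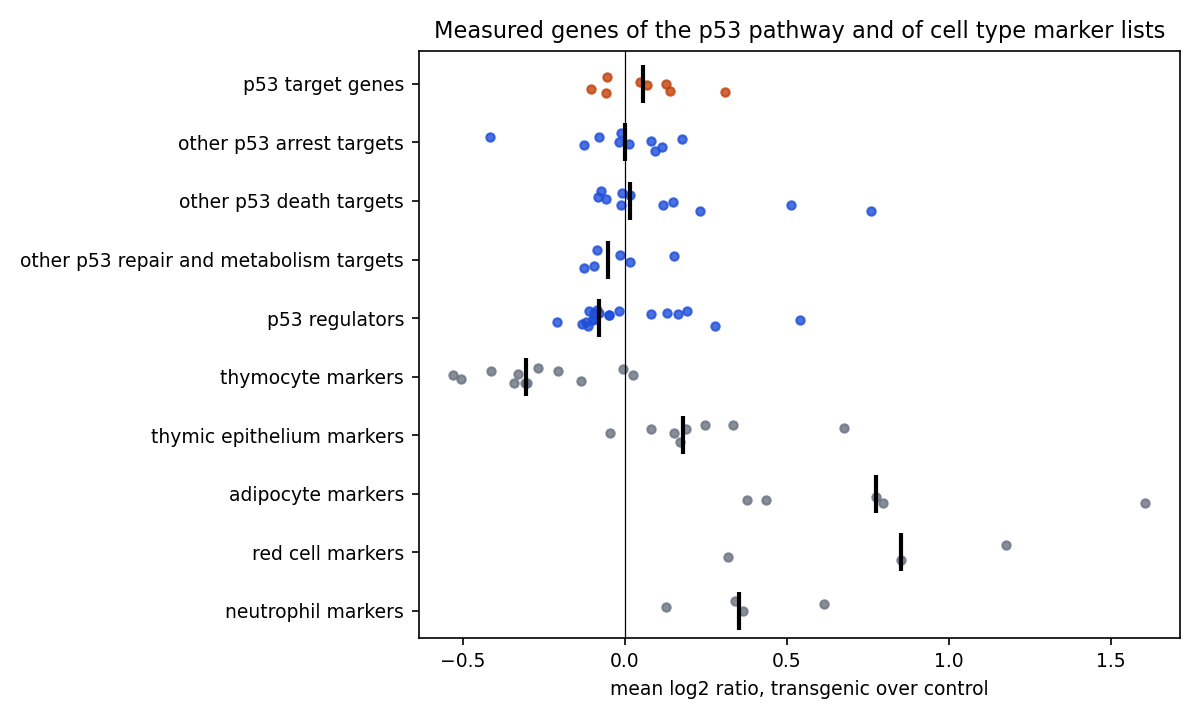
Mean log2 ratio of transgenic over control (horizontal axis) of the measured genes of each list, with a point per gene and a black bar at the list's median. The medians of the p53 lists lie between -0.08 and 0.06, that of thymocyte markers at -0.31, and that of red cell markers at 0.85. Of the 5 adipocyte points, 3 passed the filter only through the transgenic pool.

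Markers of cell types were read on the same arrays. Of 13 thymocyte markers 12 were measured and 10 were below 0 on both arrays. Of all measured genes, 28.3% were above 0 on both arrays and 29.1% below. The 12 ran from Ccr9 at -0.53 ± 0.10 to Cd4 at 0.02 ± 0.00, whose other probe read -0.12. The summed level over the 12, less the offset, was 28196 to 28806 in the transgenic channels, against 36300 to 36839 in the control channels. With median centring in place of loess all 12 were above 0 on array 1 and below 0 on array 2, as were the 8 measured members. Of 9 thymic epithelial markers 8 were measured and 6 were above 0 on both arrays (Epcam among them passed the filter only through the transgenic pool), from Psmb11 at -0.05 ± 0.16 to Krt5 at 0.68 ± 0.10, with a summed level of 9193 to 9546 in the transgenic channels, against 8123 to 8648 in the control channels. Foxn1, which defines thymic epithelium, was not well above background. With median centring Krt5 read 1.24 on array 1 and -0.0071 on array 2. Epcam alone of the 8 measured epithelial markers then stayed above 0 on both arrays. Perp and Trp63, both also genes of keratinised epithelium, were higher, as was Krt5. The 2 epithelial markers with opposite signs on the arrays were Psmb11 and Krt8, with Krt8 at -0.05 on array 1 and 0.39 on array 2. The part of epithelium in the Perp ratio was not tested. In pooled tissue, more cells of a type and more RNA per cell cannot be told apart.

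The other lists were as follows. Of 8 adipocyte markers 5 were measured, but Cfd, Car3 and Cidec passed the filter only through the transgenic pool, with 0 control channels well above background, so their ratios are bounds and are not given. Lpl was at 0.38 ± 0.03 (0.81 with the scanner software's log ratios) and Fabp4, named after its value was seen, at 0.78 ± 0.04. The 5 had a summed level of 1365 to 1424 in the transgenic channels, against 668 to 718 in the control channels. That sum includes Cfd, Car3 and Cidec, so part of its contrast is set by the filter. Adipoq, Plin1 and Lep were not measured. All 3 measured of 5 red cell markers on the array and all 4 measured of 5 neutrophil markers were above 0 on both arrays. Red cell markers ran from Alas2 at 0.32 ± 0.10 to Hbb-bt at 1.18 ± 0.27, and neutrophil markers from Ltf at 0.13 ± 0.02 to S100a9 at 0.62 ± 0.01. With median centring the 3 red cell markers stayed above 0 on both arrays, while the 4 neutrophil markers were below 0 on array 2. With the scanner software's log ratios Alas2 was at 0.91, Ltf at 0.42, Ccr7 at 1.19, C1qb at -0.43, Cd79b at 0.21, Col1a1 at 0.12 and Pecam1 at 0.14, and C1qa changed sign to 0.05. Of macrophage markers 0 of 5 measured were above 0 on both arrays (C1qb at -0.18 ± 0.15, C1qa at -0.0016 ± 0.26), and of fibroblast markers 4 of 5 were (Dcn at 0.52 ± 0.04, Col1a1 at 0.07 ± 0.27). Among the macrophage markers, Cd68 and Csf1r passed the filter only through the control pool, which favours a negative sign. With median centring the 5 fibroblast markers were below 0 on array 2. Mature T cell markers ran from Klf2 at -0.54 ± 0.20, whose other probe read 0.59, to Ccr7 at 0.45 ± 0.15. Only Cd79b (0.13 ± 0.03) of 5 B cell markers and only Pecam1 (0.04 ± 0.11) of 4 endothelial markers were measured. The part of any of these cell types in the ratios of the p53 target genes was not tested.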

How the data were processed

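The deposited scanner files hold the mean and local background intensity of each spot, on a linear scale and without background correction, and per the file headers came from Feature Extraction 9.5.1.1. Its LogRatio column holds log10 of red over green processed intensity, with a p-value from its error model, per the file headers. In the deposited series table each value is the log10 ratio of the processed red and green signals, with array 2 not yet turned and no centring. Probe positions are on mm8, per the file headers, and promoter positions on GRCm38.p6, so they were not set against each other.

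Mean signals were corrected by normexp with an offset of 50 and normalized by loess within each array (limma 3.58.1, R 4.3.3), with control spots and outliers at weight 0. Outlier spots (46 and 37) were dropped. Levels per channel were scaled between arrays (Aquantile). Array 2 was turned, so that each log2 ratio reads transgenic over control. Unturned, the arrays' ratios had a correlation of -0.271 across 11302 bright spots. Genes were named through RefSeq accession, symbol or synonym, and 8148 probes kept the array's name.

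All members were described. From each other pathway list the called genes and the 4 measured ones with the largest absolute ratios were named, and from each marker list the highest and the lowest. The members and lists were chosen with earlier results of these data known. The normalization was tested on simulated data in which only bright probes were changed, each at least 2-fold, and the dye bias did not depend on intensity. That simulation does not bear on dim probes, on ratios as small as those of the members or on the choice between loess and median centring.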

Additional observations from a re-analysis of the deposited data

How the results depend on the processing

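The 8 measured members kept the sign of their mean ratio under all 8 alternatives that use both arrays. Not all of these are separate checks. Dropping the filter on dim probes, or asking for all 4 channels well above background, left each of these members at the same probe and value. The series table repeats the software's ratios, and averaging probes changes nothing for a gene with a single measured probe. Under each alternative and on either array alone 0 members were called 2-fold different or reached 0.5 on each array. With limma 0 members had an adjusted p under 0.05. With median centring the number of members with the same sign on both arrays was 0 (0 higher, 0 lower), against 7 (5 higher, 2 lower) with loess. Of all genes, 2.08% were then above 0 on both arrays and 4.46% below, and the turned arrays then correlated at -0.454 across genes, against 0.311 with loess. With an offset of 0, 8 members had the same sign (5 higher, 3 lower). The member median of 0.057 was 0.087 with an offset of 0, 0.097 with the scanner software's log ratios and with the series table, 0.026 with median centring, 0.045 without the filter on dim probes, and 0.065 for the mean of each gene's probes. It was 0.050 to 0.062 on 1 array alone. Trp53inp1 was above 0 on array 2 alone (0.03). Trp53 was at -0.11 with the mean of its probes or median centring, and Phlda3 at 0.03 with median centring and 0.11 with the software's ratios. The cause of these shifts was not tested, but the offset shrinks the ratios of dim probes by construction. Of all genes, 26 were called 2-fold higher and 1 lower with an offset of 0, and 33 and 5 with the software's ratios, against 3 and 0. Each log2 ratio already pairs both genotypes within an array. No pairing across animals was possible because the labels give 1 pool per genotype. Cdkn1a and the dimmer Mdm2 probe were limited by signal over background, and the precision of every ratio by the number of arrays.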
